A study of Mus musculus with 32 samples.

Results

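Cultured astrocytes were set beside astrocytes sorted directly from the nervous system of adult mice, gene by gene and by rank. The comparison used 7 of the 32 samples of the series: the 3 vehicle libraries of the culture experiment and the 4 libraries of astrocytes sorted at 3 months of age. Mice and cultures of both groups had the genotype TDP-43_Q331K, in which a transgene encodes TDP-43, an RNA-binding protein, with a mutation found in amyotrophic lateral sclerosis. The sources used here do not give the promoter of the transgene, and mice without it were not analysed here, so every value describes transgenic glia. Sorted cells came from cortices and spinal cords and were selected with an antibody to ACSA2, a surface antigen of astrocytes. Cultured cells were primary astrocytes kept for 14 days, replated, and harvested as the vehicle arm of an experiment in which the other arm received the MYC inhibitor Omomyc for 48 h. For the cultures, the sources used here give neither the region nor the age of the donors. The labels do not say which libraries came from separate cultures or animals, so the p values measure the spread between these libraries, which may be technical.

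Astrocytes clear glutamate and potassium from synapses, couple to each other through gap junctions, supply neurons with lactate and cholesterol, and release proteins that organise synapses. They acquire these functions after birth, under signals from neurons and vessels. Grown on plastic, astrocytes spread, divide, assemble contractile fibres and lay down matrix, and they take on some features of the reactive state that follows injury.

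The 2 groups were made with different library kits, and the culture table lists 17572 genes against 55291 in the table of sorted cells. Levels were therefore ranked within each library. A rank percentile of 100 marks the gene with the most counts in a library and 0 the gene with the fewest, over the 14725 protein-coding genes found in both tables. Percentiles depend on gene length too, so they were compared between libraries for the same gene and never between genes. A gene was called when every library of one group ranked above every library of the other by at least 20 percentile points and limma gave a Benjamini-Hochberg adjusted p under 0.05. With 3 against 4 libraries, an exact permutation test of a single gene cannot give a two-sided p below 0.0571, so the adjusted p values all come from the model across genes. Total counts were between 30117025 and 32210972 in culture and between 7604222 and 20763190 in the sorted libraries. The median shared gene had 785 to 824 counts in culture and 149 to 399 in the sorts, so low ranks are less precise in the sorts. Kit, sorting and culture change together between the groups and cannot be told apart. Whether region and age differ as well is not known, since neither is given for the cultures. In bulk libraries, fewer cells of a type and less RNA per cell also cannot be told apart.

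Markers of other cell types moved with the groups, and in opposite directions. Summed over 20 microglia and macrophage markers, the level was 4730 to 8750 CPM (a count scaled to the same total over the shared protein-coding genes of every library) in culture and 59.6 to 63.0 CPM in the sorted astrocytes. In microglia sorted with Cd11b at 3 months the same sum was 52700 to 63900 CPM. Summed over 12 markers of myelinating oligodendrocytes, it was 297 to 362 CPM in culture and 26400 to 40700 CPM in the sorted astrocytes, against 98100 to 123000 CPM in 3 month cells sorted with O4, an antigen of the oligodendrocyte lineage. The 15 markers of pericytes, smooth muscle and fibroblasts summed to 6280 to 9240 CPM in culture and 426 to 580 CPM in the sorts, while the median rank difference over this list was 2.0 percentile points. Neuronal markers lay at 395 to 438 and 419 to 523 CPM. The 30 astrocyte markers summed to 21700 to 23500 CPM in culture and 47100 to 69500 CPM in the sorts, against 7500 to 8580 CPM in the O4 sorts. None of the markers measured was at 0 in every library of either group. For culture this says little, because only genes kept in the reduced culture table could be measured. Markers not found in both tables, such as Ermn and Gjb1 of the myelin list, were left out of the sums. The part of these other cells in the results that follow was not tested, except where a gene's level in the other sorts is given beside it. The 3 month microglia libraries had only 2860618 to 3642985 counts over the shared genes. In them 2971 to 3690 shared genes were at 0, against 418 to 677 in the sorted astrocytes. Low microglia percentiles given below are therefore less precise.

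**Figure D1:**
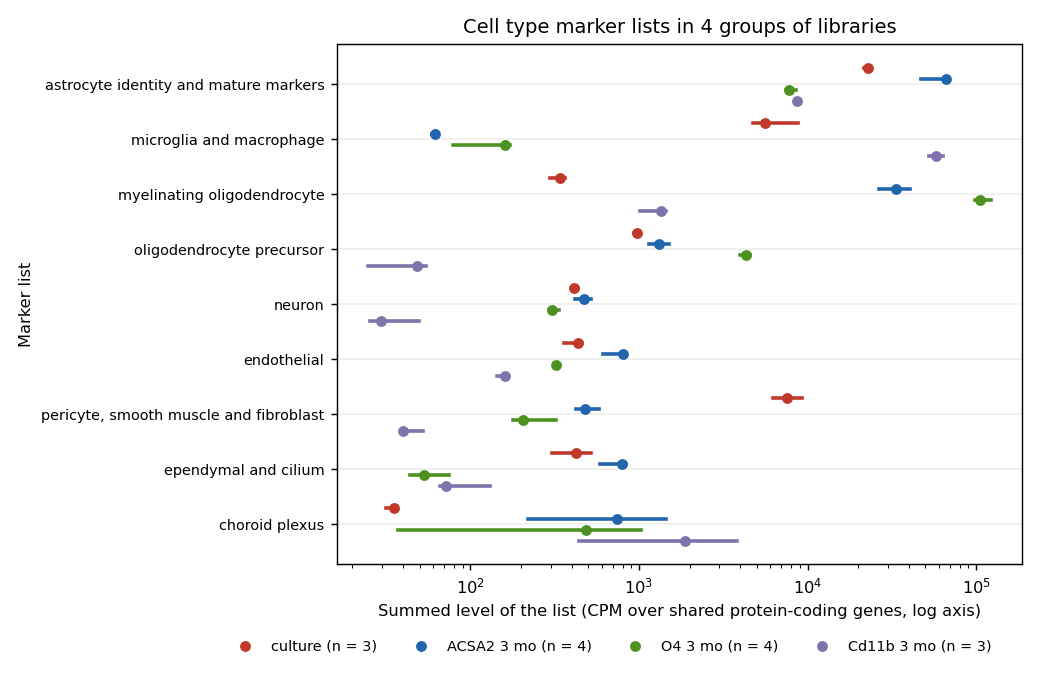
Summed level of each marker list (horizontal log axis, CPM over shared protein-coding genes) in cultured astrocytes, in astrocytes sorted with ACSA2 and in cells sorted with O4 and Cd11b, the sorts at 3 months. Points are medians and lines run from the lowest to the highest library. The microglia list lies at 4730 CPM or more in culture and at 63.0 CPM or less in the ACSA2 sorts, and the myelin list shows the opposite order.

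Of the 14725 genes, 1234 (8.38%) ranked higher in culture and 1067 (7.25%) ranked lower, which are the shares that all counts of gene lists below are read against. Without a minimum gap, the libraries of the 2 groups did not overlap for 74.8% of all genes, and limma alone passed 75.5%, so either criterion alone separated little here. Spearman correlations across genes were 0.987 to 0.991 between culture libraries, 0.990 to 0.993 between sorted libraries and 0.733 to 0.764 between a culture and a sorted library. Across genes, the difference had a Spearman correlation of -0.17 with exon length and 0.09 with GC content. The rank scale has a ceiling. A gene near the top in both groups cannot show a gap of 20 points however far its level moves, so genes of this kind are given with their CPM and with an edgeR fit of the joined counts, where a call needs a 4-fold difference.

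**Figure D2:**
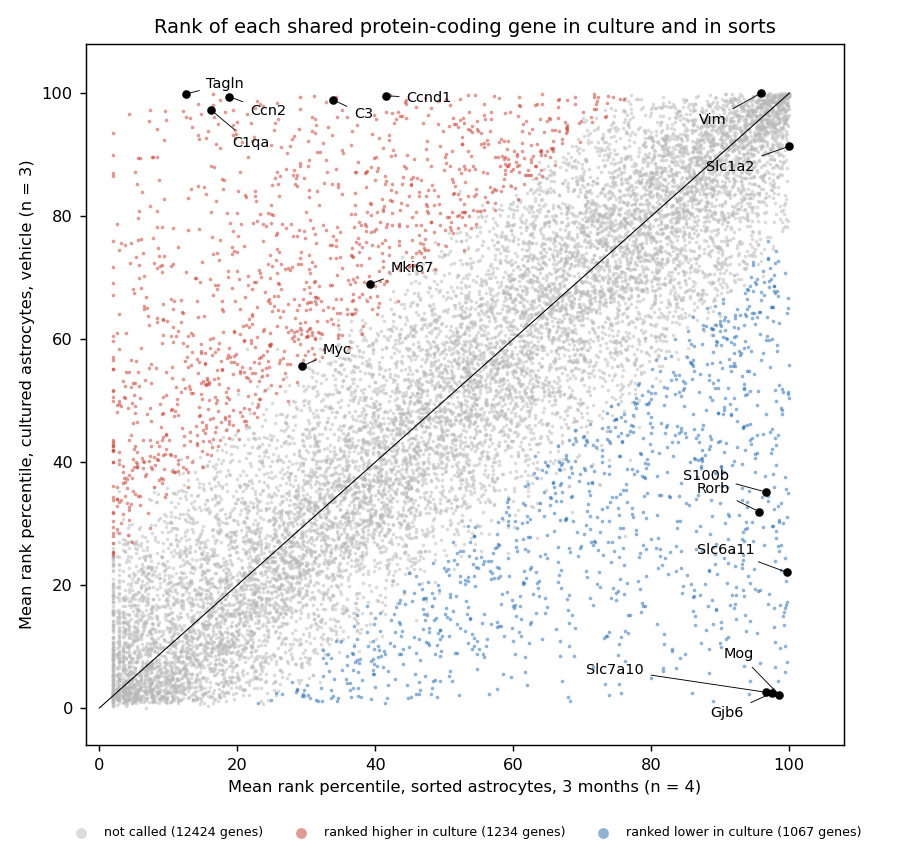
Mean rank percentile of each of the 14725 shared protein-coding genes in sorted astrocytes (horizontal axis) and cultured astrocytes (vertical axis), with the line of equal rank. Red points are the 1234 genes called higher and blue points the 1067 genes called lower in culture, and named genes are in black. Vim and Slc1a2 lie in the crowded top corner, where ranks are compressed.

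Many astrocyte genes had similar ranks in cultured and sorted astrocytes, while others ranked far lower in culture. Of the 30 genes for astrocyte identity and mature markers, 8 ranked lower in culture and 0 higher, with a median difference of -2.1 points against -0.44 over all genes. Gjb6, which encodes the gap junction protein connexin 30 (chromosome 14, 57123303 to 57133611, GRCm38), stood at percentiles 2.5, 1.2 and 3.8 in the culture libraries and 98.0, 97.9, 97.6 and 96.8 in the sorts. The groups lay at opposite ends of the scale, and the difference was -95.1 ± 1.57 points (SE, adjusted p = 1.13e-11), or 0.127 to 0.292 CPM against 298 to 423 CPM. Slc7a10, a transporter of D-serine and glycine, lay at 3.0, 2.5 and 2.2 in culture and at 95.5 to 97.5 in the sorts, and 17.9% of its exons overlap another gene. Cldn10, a claudin, lay at 6.6 to 8.2 against 93.3 to 96.8. Ntsr2, a neurotensin receptor, lay at 23.5 to 26.0 against 99.2 to 99.5, and Agt, the angiotensin precursor, at 17.6 to 19.1 against 83.0 to 88.3. S100b, a calcium-binding protein used to stain astrocytes, lay at 34.0, 35.4 and 36.1 in culture and 95.9, 96.7, 96.8 and 96.9 in the sorts, a difference of -61.4 ± 1.36 points (adjusted p = 2.76e-11). O4 sorts have more S100b than this, at a median percentile of 99.5, and myelin markers were present in the astrocyte sorts, so the astrocyte share of this difference was not tested. Gjb6, Slc7a10, Cldn10, Ntsr2 and Agt had median percentiles of 24.7 to 38.7 in the 3 month O4 sorts. Ppp1r3c, a glycogen-targeting subunit, ranked lower by 29.4 points but was not called per kilobase of exon or in the joined count fits.

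Several other classical astrocyte genes, unlike S100b and Gjb6, were among the highest genes in both groups. Aqp4, the water channel of astrocyte endfeet, stood at 99.6, 99.4 and 99.5 in culture and 99.5, 99.5, 99.5 and 99.3 in the sorts, with 954 to 1090 and 844 to 1130 CPM. Its level overlapped between the groups on both scales. Apoe, a lipid carrier, lay at 4740 to 7250 CPM in culture and 4010 to 6110 CPM in the sorts, and the potassium channel gene Kcnj10 at 1280 to 1650 and 1520 to 1570 CPM. Aldh1l1, a folate enzyme used as a pan-astrocyte marker, stood at 96.7 to 97.4 against 92.0 to 96.0 and was not called on either scale. Sox9, a transcription factor of astrocytes, stood at 97.0 to 98.3 against 98.4 to 99.2.

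Other genes with top ranks in both groups moved by several fold below the ceiling of the rank scale. Slc1a2, the main glutamate transporter of the adult forebrain, had 142 to 182 CPM in culture and 12400 to 19400 CPM in the sorts, a log2 fold change of -7.01 in the joined edgeR fit, while its percentile only moved from 100 in the sorts to 89.9 to 92.8. Slc1a3, the other glial glutamate transporter, had a log2 fold change of -2.21. Gja1, which encodes connexin 43, had one of -3.67, with 269 to 297 CPM in culture and 2120 to 3330 CPM in the sorts. Glul, the glutamine synthetase gene, had one of -3.27, and Sparcl1, a synapse-organising matrix protein, one of -4.42. The intermediate filament genes went the other way. Gfap had 3690 to 4690 CPM in culture and 118 to 189 CPM in the sorts, and Vim had 5400 to 6870 and 198 to 278 CPM, with log2 fold changes of 4.50 and 4.36. In the joined edgeR fit 18 of the 30 astrocyte markers were called lower and 1 higher, at 4-fold and an adjusted p under 0.05. Of the 14030 genes in that fit 10.1% were called lower and 14.2% higher.

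**Figure D3:**
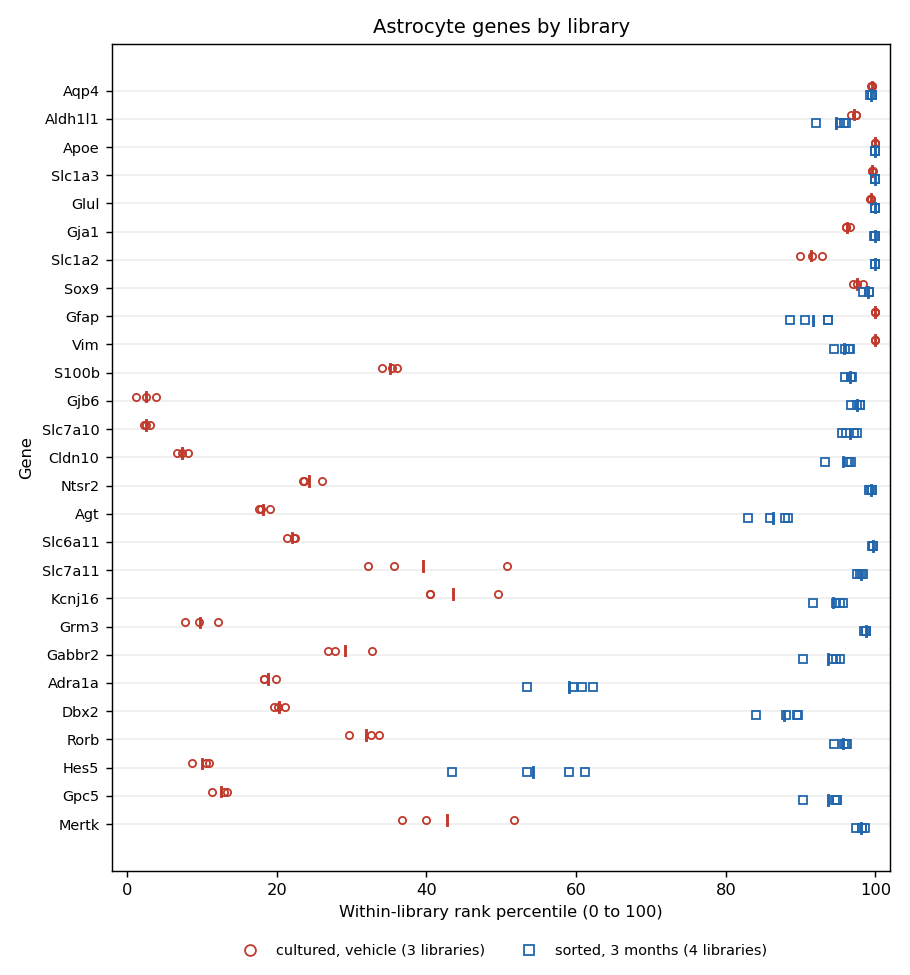
Rank percentile (horizontal axis, 0 to 100) of 27 astrocyte genes in each library. Circles are the 3 culture libraries, squares the 4 sorted libraries, and short vertical lines the group means. The upper genes lie near 100 in both groups, while Gjb6, Slc7a10 and Cldn10 lie below 10 in every culture library.

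Genes for handling transmitters and potassium were called lower in culture or not called. Of 20 genes in this list, 6 were called lower and 0 higher, with a median difference of -5.1 points. Differences were below 0 for 18 of the 20 and above 0 for 2. Summed over the list, the level was 6550 to 8000 CPM in culture and 38000 to 55800 CPM in the sorts. Slc6a11, the GABA transporter GAT3, stood at 22.3, 22.5 and 21.4 in culture and 99.7, 99.7, 99.7 and 99.5 in the sorts, with 5.10 to 5.52 and 1200 to 1910 CPM. Slc7a11, the cystine-glutamate exchanger, stood at 32.2, 35.7 and 50.8 in culture against 97.6 to 98.4. The third culture library was the highest of the 3 and still lay far below the sorts. Kcnj16, a subunit of inward rectifier potassium channels, stood at 40.5 to 49.6 against 91.7 to 95.7. Slc6a9, the glycine transporter GLYT1, was also called lower, but 30.2% of its exons overlap another gene and O4 sorts rank it higher still, at a median of 97.4.

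Receptors for transmitters changed in both directions. Grm3, a metabotropic glutamate receptor gene of adult astrocytes, stood at 12.1, 9.6 and 7.7 in culture and 98.8, 98.7, 98.7 and 98.5 in the sorts. Grin2c, an NMDA receptor subunit gene (chromosome 11, 115249169 to 115267243), stood at 2.5, 3.1 and 3.8 in culture against 97.9, 98.4, 97.0 and 97.3, and at a median of 23.3 in O4 sorts. Among the 20 receptor genes of the list, 5 were called lower (Grm3, Ntsr2, Gabbr2, Adra1a and Egfr) and 3 higher (F2r, P2ry1 and Adrb1). Gabbr2, a GABA-B receptor subunit gene, lay at 26.9 to 32.7 against 90.3 to 95.3, and Adra1a, an adrenergic receptor gene, at 18.3 to 19.9 against 53.4 to 62.2. F2r, the thrombin receptor, lay at 94.1 to 94.6 in culture against 30.4 to 36.0. P2ry1, a purinergic receptor gene with 23.1% exon overlap, lay at 54.4 to 58.1 against 24.0 to 27.4. The call of Adrb1 was lost when all shared genes were ranked and in the count fits.

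Most transcription factors of astrocytes in the list were not called. Of 30 factors, 6 were called lower and 2 higher, with a median difference of -6.4 points. Rorb, a nuclear receptor, stood at 32.6, 33.6 and 29.7 in culture and 96.1, 96.2, 95.8 and 94.4 in the sorts, a difference of -63.7 ± 1.53 points (adjusted p = 4.44e-11). Dbx2, a homeobox factor, stood at 19.6 to 21.1 against 84.0 to 89.6. Hes5 and Hey2, both Notch effectors, stood at 8.7 to 10.9 against 43.4 to 61.2 and at 22.3 to 23.6 against 47.8 to 52.3. Hes5 overlaps another gene over 31.8% of its exons. Thrb, a thyroid hormone receptor gene, ranked lower by 31.7 points, without a call per kilobase or in the count fits. Id1 and Id3, inhibitors of differentiation factors, ranked higher, Id1 at 91.1 to 95.3 against 38.7 to 42.8. The call of Id3 was lost per kilobase and with all shared genes ranked. Sox2 stood at 95.9 to 97.4 against 94.9 to 97.4, with overlapping libraries, and Nfia at 79.2 to 85.6 against 96.5 to 97.5 without a call.

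Among 19 genes of neural progenitors and immature glia, 4 ranked higher and 2 lower, with a median difference of 6.8 points. Nes, the filament protein of neural stem cells, stood at 99.7 in each culture library and at 43.6, 57.9, 57.9 and 58.4 in the sorts. Tnc, a matrix glycoprotein of developing and injured tissue, stood at 98.2 to 99.0 against 35.2 to 51.4. Cd44, a hyaluronan receptor, stood at 95.5 to 96.8 against 43.0 to 46.4. Sox4 also ranked higher, with 54.6% exon overlap. Mdk, a growth factor, ranked lower, at 23.5 to 26.1 against 57.5 to 70.2.

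The proteins by which astrocytes organise synapses were split. Of 20, 5 ranked higher and 6 lower. Thbs1 and Thbs2, thrombospondins that promote excitatory synapses, stood at 99.2, 99.2 and 99.5 against 27.9 to 30.4, and at 85.1 to 97.2 against 30.5 to 32.6. Thbs4, the family member of mature tissue, went the opposite way, at 2.5 to 4.7 in culture and 38.3 to 50.0 in the sorts. The glypican genes differed in the same manner. Gpc4 stood at 99.0 to 99.2 against 59.1 to 73.3, with a call that was lost per kilobase, and Gpc5 at 11.4 to 13.3 against 90.3 to 94.9. Gpc6 was not called. Mertk, a phagocytic receptor through which astrocytes take up synapses, stood at 40.0, 36.7 and 51.7 in culture and 98.2, 98.6, 98.2 and 97.4 in the sorts. Chrdl1 had 69.7 to 82.0 against 91.6 to 96.0 and was not called.

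Genes of the reactive astrocyte state ranked higher in culture, in each of the classes into which they are usually divided. Of the 13 pan-reactive genes 8 were called higher and 0 lower, with a median difference of 41.1 points. Of the 13 A1 genes, named for a state induced by inflammation, 10 were called higher and 1 lower. Of the 11 measured A2 genes, named for a state after ischaemia, 7 were called higher and 0 lower. Serpina3n, a protease inhibitor, stood at 99.2, 98.7 and 99.2 in culture and 52.3, 45.2, 49.8 and 54.0 in the sorts. O4 sorts had a median of 93.0 for it. C3, a complement component (chromosome 17, 57203970 to 57228136), stood at 99.5, 98.7 and 98.6 in culture and 26.4, 37.2, 37.3 and 34.5 in the sorts, with 505 to 932 and 4.50 to 11.3 CPM. This was a difference of 65.0 ± 2.54 points (adjusted p = 1.72e-09), and its median was 37.5 in the microglia sorts. S1pr3, a receptor for sphingosine phosphate, and Osmr, the oncostatin M receptor, stood at 95.5 to 97.2 against 39.8 to 47.3 and at 85.9 to 90.9 against 38.8 to 40.3. Lcn2, an iron-binding lipocalin, stood at 44.8 to 58.1 against 1.4 to 10.5, with 0 counts in at least 1 sorted library. Emp1 and Ptx3, A2 genes for a membrane protein and a pentraxin, stood at 92.8 to 93.8 against 32.8 to 34.9 and at 64.1 to 70.4 against 13.1 to 19.1. The A2 gene Cd14, a coreceptor for endotoxin, lay at 67.1, 77.9 and 89.5 in culture, the order of libraries also seen for C1qa, Csf1r and Cx3cr1, markers of microglia. Amigo2 was the A1 gene called lower, at 16.4 to 19.0 against 39.9 to 47.4, and its call was lost when all shared genes were ranked. Ugt1a6a and H2-D1 belong to families of near-identical copies, so their A1 calls are uncertain. Clcf1, among the 7 A2 genes called higher, had 0 counts in every ACSA2 and O4 library, so its call is uncertain too.

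The S100 family of calcium-binding proteins did not move together. Of 10 measured members, S100b was lower while S100a4, S100a6, S100a10 and S100a11 were higher. S100a11 stood at 97.2, 97.9 and 96.9 in culture and 32.3, 35.8, 39.8 and 32.7 in the sorts. S100a10, a partner of annexin A2 and an A2 gene, stood at 77.4 to 85.2 against 33.1 to 42.2, and S100a6 at 90.6 to 93.9 against 48.7 to 57.9. Per kilobase of exon only 2 of the 4 were still called higher, and S100a6 and S100a11 were the ones lost. S100a4 overlaps another gene over 51.7% of its exons.

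The contractile cytoskeleton held some of the largest gaps. Of 31 genes for actin and adhesion, 19 were called higher and 0 lower, with a median difference of 29.3 points. Cnn1, calponin 1 (chromosome 9, 22099216 to 22109630), stood at 96.9, 97.6 and 96.8 in culture and 7.6, 10.8, 12 and 7.8 in the sorts, with 308 to 370 and 0.214 to 0.672 CPM. The difference was 87.5 ± 1.77 points (adjusted p = 1.85e-11). Tagln, transgelin (chromosome 9, 45929619 to 45936058), stood at 99.9, 99.9 and 99.8 against 11.6, 12.7, 13.1 and 12.8. It shares 67.9% of its exon length with Pcsk7 and Gm48529, so its count in the sorts is uncertain. Cnn2 stood at 98.6 to 98.9 against 20.0 to 25.4 and Anxa3, an annexin, at 98.0 to 98.4 against 20.8 to 26.4. Acta2, smooth muscle actin, stood at 99.9 in each culture library and at 60.9, 76.6, 78.7 and 70.3 in the sorts, and Myl9, a myosin light chain gene, at 98.1 to 98.6 against 46.6 to 61.6. The calls of Acta2 and Myl9 were lost per kilobase. Actb, the cytoskeletal actin, lay above 99 in every library, with 3830 to 4440 CPM in culture and 1280 to 1480 CPM in the sorts.

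Many contractile genes are targets of SRF, a factor that is activated when actin polymerises, or of YAP with TEAD factors, which respond to spreading and stiffness. Of 28 such targets 16 were called higher and 0 lower, with a median difference of 26.2 points. Ccn2 and Ccn1, matricellular proteins used as YAP readouts, stood at 99.3 to 99.6 against 15.4 to 20.5 and at 99.4 against 70.0 to 75.7. Ccn2 has 23.2% exon overlap, and the call of Ccn1 was lost per kilobase. Igfbp3, a binding protein of insulin-like growth factors, stood at 98.7, 99.1 and 98.8 against 17.2, 15.1, 18.4 and 19.1. Yap1 itself stood at 90.1 to 91.5 against 78.2 to 81.3 and was not called.

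Promoters of 12 of the 16 called targets were present in the RefSeq set for GRCm38.p6 (250 bases before to 50 after the start of the gene). Both strands were searched for the CArG box bound by SRF, for CATTCC, the TEAD site, and for TGANTCA, the AP-1 site. The CArG box was found in 3 of the 12 (Fhl2, Myl9 and Srf), against 1.63% of 32851 promoters. CATTCC was found in 7 of the 12, among them Acta2 and Ccn1, against 14.7% of promoters, and TGANTCA in 0 of the 12 against 7.81%. These are letter matches in one window and show no binding. The list was made of known SRF and YAP/TEAD targets, so more of their sites than in all promoters can come from that choice alone. Promoters of uncalled members are not given, so the shares do not bear on the calls. Tagln, Ccn2, Thbs1 and Actg2 had no entry. Cnn1 and Igfbp3 are shown because they had the widest gaps among targets with an entry. Myl9 and Acta2 were chosen after the search, as a promoter with a CArG box and one with a TEAD site. Capitals mark the motif, and in Acta2 it reads on the opposite strand. Those of Cnn1 and Myl9 lie on the plus strand, at chr9:22099003-22099302 and chr2:156775214-156775513, and the others on the minus strand, at chr11:7213874-7214173 and chr19:34255324-34255623.
Cnn1: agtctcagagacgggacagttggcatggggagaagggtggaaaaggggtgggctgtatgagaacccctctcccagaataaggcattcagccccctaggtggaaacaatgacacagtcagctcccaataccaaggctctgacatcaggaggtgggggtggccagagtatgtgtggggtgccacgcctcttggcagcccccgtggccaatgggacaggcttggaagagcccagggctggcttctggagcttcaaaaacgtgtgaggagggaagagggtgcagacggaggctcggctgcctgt
Igfbp3: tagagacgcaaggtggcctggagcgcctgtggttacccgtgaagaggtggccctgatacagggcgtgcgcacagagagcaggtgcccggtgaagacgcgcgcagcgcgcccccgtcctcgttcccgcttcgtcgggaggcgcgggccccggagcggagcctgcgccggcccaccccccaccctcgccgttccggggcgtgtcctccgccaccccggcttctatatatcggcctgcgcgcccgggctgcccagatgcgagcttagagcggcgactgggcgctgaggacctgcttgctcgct
Myl9: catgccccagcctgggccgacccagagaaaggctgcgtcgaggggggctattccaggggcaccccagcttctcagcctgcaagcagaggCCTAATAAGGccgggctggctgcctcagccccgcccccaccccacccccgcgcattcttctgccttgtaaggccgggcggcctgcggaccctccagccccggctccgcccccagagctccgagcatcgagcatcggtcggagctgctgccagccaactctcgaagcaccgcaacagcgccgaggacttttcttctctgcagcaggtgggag
Acta2: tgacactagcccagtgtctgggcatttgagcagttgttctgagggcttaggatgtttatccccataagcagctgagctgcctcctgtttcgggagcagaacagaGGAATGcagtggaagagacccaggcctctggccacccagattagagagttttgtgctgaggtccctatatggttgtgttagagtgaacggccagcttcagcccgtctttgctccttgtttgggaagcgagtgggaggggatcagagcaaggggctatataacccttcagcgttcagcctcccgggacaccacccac

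Matrix genes ranked higher as well. Of 30 measured collagen genes 15 were called higher and 0 lower, with a median difference of 30.7 points. Col4a6, a basement membrane chain, stood at 96.7, 95.0 and 95.5 in culture and 7.6, 10.8, 13.1 and 7.0 in the sorts. Col11a1, a fibrillar chain, stood at 93.4 to 96.7 against 21.3 to 22.5, and Col8a1 at 94.6 to 97.3 against 18.8 to 34.8. Col3a1, a fibrillar chain abundant in fibroblasts, stood at 91.7, 90.9 and 98.8 against 18.8, 16.4, 10.9 and 17.1. Its level was 557 CPM in the third culture library and 155 CPM in the lowest of the 3. Col1a1 had the same order of libraries, with 430 to 1760 CPM in culture and 13.2 to 30.1 CPM in the sorts.

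Enzymes that crosslink and remodel the matrix followed the collagens. Of 38 other matrix genes 14 were called higher and 0 lower. Lox and Loxl2, which crosslink collagen, stood at 89.4 to 98.8 against 11.6 to 16.4 and at 89.0 to 96.4 against 14.9 to 20.0. Ltbp2, which binds microfibrils and is outside the list, had one of the widest gaps of all genes, at 97.1, 97.0 and 97.8 against 9.2, 5.6, 9.7 and 5.1. Spp1, osteopontin, stood at 97.5 to 99.3 against 11.6 to 16.2, with 18.8% exon overlap. Fn1, fibronectin, had 1120 to 2310 CPM in culture and 30.6 to 86.1 CPM in the sorts but was not called, because the highest sorted library, at 83.4, was less than 20 points below the lowest culture library, at 99.6. Fibroblast markers did not all follow. Dcn, decorin, stood at 28.9, 25.9 and 41.7 in culture and 23.6, 28.2, 26.4 and 18.7 in the sorts, with overlapping libraries, and Pdgfrb, a pericyte receptor gene, at 72.1 to 79.2 against 85.6 to 92.2.

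Genes of the division cycle ranked higher in culture. Of 40 genes for cell division 26 were called higher and 0 lower, with a median difference of 31.5 points. Ccnd1, the cyclin of the growth phase, stood at 99.6, 99.6 and 99.5 in culture and 41.9, 40.8, 43.2 and 40.1 in the sorts, with 954 to 1160 and 13 to 14.5 CPM. It overlaps another gene over 23.4% of its exons. Top2a, the topoisomerase of dividing cells, stood at 85.6, 83.9 and 86.1 against 28.8, 33.1, 37.2 and 39.3, and Rrm2, which makes deoxynucleotides, at 75.9 to 78.6 against 24.5 to 27.4. Cdk1, the mitotic kinase, stood at 60.6 to 66.2 against 12.5 to 17.4. Microglia sorts at 3 months had medians of 97.2 for Ccnd1 and 68.4 for Top2a. Summed over the 40 genes, the level was 3750 to 3960 CPM in culture and 564 to 661 CPM in the sorted astrocytes. It was 1010 to 1130 CPM in the microglia sorts, and the part of microglia in these differences was not tested. Mki67, the usual proliferation marker, stood at 63.0 to 72.2 against 28.8 to 45.5, and a gap of 17.5 points left it uncalled. The 26 include inhibitors of the cycle, such as Cdkn1a at 94.1 to 95.8 against 38.3 to 50.5 and Cdkn2b at 62.1 to 67.1 against 13.1 to 16.4. Cdkn2a and Cdkn2c were also called higher, while the inhibitors Cdkn1b and Cdkn1c were not called.

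Myc itself ranked higher in culture. The gene (chromosome 15, 61985391 to 61990374) stood at 56.2, 55.2 and 55.4 in culture and 33.2, 26.9, 31.9 and 25.6 in the sorts, with 31.9 to 34.0 and 4.61 to 8.03 CPM. The libraries did not overlap, and the difference was 26.2 ± 2.13 points (adjusted p = 6.47e-07). With a gap of 22.0 points this call was close to the limit, and it was lost when all shared genes were ranked. Its median percentile was 48.3 in microglia sorts and 38.4 in O4 sorts. Mxd1, which competes with MYC for its partner, ranked lower, at 36.7 to 39.5 against 66.8 to 72.4, but was not called in the count fits. The other 12 genes of the MYC network were not called, among them Mycn and Max, so 1 of 14 higher and 1 of 14 lower is near the share over all genes. Of 30 ribosome biogenesis genes that MYC is known to activate, 0 were called in either direction. At a gap of 10 points 6 of the 30 ranked higher and 0 lower, against 16.5% and 15.3% of all genes. The share higher is near that of all genes and the share lower is below it. Small differences were mostly upward, with 23 of the 30 above 0 and 7 below, against 7104 and 7621 of all genes. The median difference was 4.1 points. Summed over the 30 genes, the level was 2650 to 2840 CPM in culture and 1300 to 1460 CPM in the sorts. Odc1, the polyamine enzyme, stood at 97.2 to 97.7 against 69.4 to 77.4 and was called in the joined count fits, and Npm1, a nucleolar protein, stood at 95.3 to 96.1 against 83.2 to 86.9.

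Energy and sterol metabolism gave few calls by rank. Median percentiles in culture and sorts were 93.2 and 90.8 for glycolysis and lactate, and 83.3 and 90.0 for cholesterol. The ceiling of the rank scale therefore limits calls in both lists. The glycolysis list summed to 9070 to 10500 CPM in culture and 5920 to 8010 CPM in the sorts. The cholesterol list summed to 3430 to 3460 and 4100 to 4650 CPM. Of 27 measured genes of glycolysis and lactate 2 were called higher and 1 lower, with a median difference of 1.7 points. Hk2, an inducible hexokinase, stood at 71.9, 72.8 and 77.0 in culture and 23, 18.2, 16.8 and 19.1 in the sorts, while microglia sorts had a median of 99.0. Pgam1 also ranked higher, but not per kilobase, and genes similar to it in sequence make its count uncertain. Pygm, a glycogen phosphorylase gene, ranked lower, at 6.5 to 8.2 against 70.1 to 79.9. Ldha had 343 to 475 CPM in culture and 65.7 to 87.8 CPM in the sorts and was not called by rank, though it was in the count fits. Of 28 genes for cholesterol synthesis and uptake 2 were called higher and 3 lower, shares close to those of all genes. Dhcr7, which completes cholesterol, stood at 62.8 to 65.6 against 91.6 to 94.5, and Abcg1, a sterol exporter gene, at 31.6 to 36.6 against 87.2 to 93.7. Fdps, an enzyme of isoprenoid synthesis with 26.7% exon overlap, stood at 77.5 to 86.2 against 26.9 to 34.4.

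Immediate early genes, which answer growth factors, stress and activity within minutes, differed in both directions. Of 28, 9 were called higher and 2 lower. Among the 9 is Jund, whose low count in the sorts is uncertain. Its median percentile was 8.0 in the 3 month astrocyte sorts and 99.8 in the 3 month microglia sorts. Fosl2 and Maff, AP-1 family factors, stood at 91.5 to 93.4 against 26.4 to 29.6 and at 62.2 to 71.0 against 12.1 to 15.8. Cebpd, a factor of the acute phase response, stood at 93.0 to 94.9 against 27.7 to 30.4. Arc and Fosb were the 2 called lower, at 16.3 to 20.2 against 69.1 to 79.5 and at 15.6 to 17.4 against 52.3 to 72.9. Fos stood at 68.8 to 73.9 against 86.4 to 91.7 and Egr1 at 54.0 to 61.2 against 72.9 to 85.2, both without a call. Heat shock chaperones gave 1 call in 20. Hspb8, a small chaperone of astrocytes, stood at 99.1 to 99.5 against 58.7 to 62.9, and its call was lost per kilobase.

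The circadian clock list had a lower median in culture, by 15.7 points, with 5 of 20 genes called lower and 0 higher. Hlf, a clock output factor, stood at 26.9, 23.4 and 21.9 in culture and 94.8, 94.9, 93.9 and 89.8 in the sorts. Npas2, which pairs with the core activator, stood at 13.2 to 16.0 against 53.1 to 67.5. Nr1d1, a repressor, stood at 63.6 to 69.4 against 94.2 to 97.1 and lost its call per kilobase. Core genes of the loop were not called: Arntl stood at 48.5 to 52.8 against 64.6 to 71.5, and Per2 at 51.9 to 64.7 against 47.4 to 67.8, with overlapping libraries. The sources used here do not give the time of day of harvest.

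Interferon-stimulated and antigen presentation genes ranked higher. Of 31, 18 were called higher and 0 lower, with a median difference of 30.2 points. Bst2, an antiviral tether, stood at 78.2, 89.4 and 90.5 in culture and 16.1, 17.6, 19.0 and 18.5 in the sorts. Ifit3, a sensor of foreign RNA, stood at 86.9 to 92.6 against 29.6 to 35.3. B2m, the light chain of class I molecules, stood at 99.2 to 99.6 against 79.6 to 84.0 and was not called. Cd74, the class II chaperone of microglia and other antigen-presenting cells, was low in both groups, at 19.1 to 24.1 and 12.5 to 18.4. Microglia sorts had medians of 51.9 for Ifit3 and 66.8 for Bst2. Summed over the 31 genes, the level was 2840 to 4220 CPM in culture and 375 to 431 CPM in the sorted astrocytes. It was 4090 to 7030 CPM in the 3 month microglia sorts, and the part of microglia in these differences was not tested.

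Cytokine genes moved both ways. Of 28 genes for NF-kB signals, cytokines and chemokines, 6 were called higher and 3 lower. Icam1, an adhesion molecule induced by NF-kB, stood at 68.8 to 72.9 against 7.6 to 15.2. Cx3cl1, fractalkine, stood at 86.8 to 88.3 against 44.8 to 54.3. Il33, an alarmin of glia, went the other way, at 26.8, 24.9 and 28.0 in culture and 98.8, 98.6, 98.8 and 98.8 in the sorts. O4 sorts also had a median of 99.2 for Il33. Il18 and Cxcl12 ranked lower as well. Il6 was near the bottom in both groups, with 0.170 to 0.422 CPM in culture and 0.053 CPM or less in the sorts.

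Tardbp, the mouse gene for TDP-43, stood at 93.3, 91.0 and 92.6 in culture and 84.8, 84.7, 83.4 and 87.6 in the sorts and was not called, with 23.3% exon overlap. The counts do not separate the transgene from the mouse gene. Of the 20 genes for TDP-43 and other disease genes, 1 was called higher and 1 lower. Stmn2, a tubulin-binding protein of neurons whose splicing depends on TDP-43 in human cells, stood at 81.8 to 87.1 in culture against 24.9 to 31.0. Neuronal genes as a group were not higher: of 13 measured, Stmn2 was the 1 called higher and Snap25, a synaptic protein, the 1 called lower, at 9.0 to 10.0 against 43.5 to 61.2. Optn, an autophagy receptor gene, was lower by 22.2 points and lost its call in the count fits. Sod1 stood at 90.7 to 94.4 against 90.6 to 93.0, with overlapping libraries.

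Few genes of regional patterning could be compared. Of 34 in the list, 10 were found in both tables, and 0 were called. Hoxb4, a gene of the hindbrain and spinal cord, stood at 3.1 to 5.5 in culture and 13.4 to 16.2 in the sorts. The other Hox genes of the list were not analysed here.

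Markers of other cell types give the detail behind the sums. Of 20 microglia and macrophage markers 18 were called higher in culture, with a median difference of 73.3 points. C1qa, a complement subunit gene made by microglia, stood at 96.0, 97.3 and 98.5 in culture and 16.1, 17.0, 16.2 and 15.5 in the sorts. Csf1r, the growth factor receptor on which microglia depend, stood at 97.2, 97.4 and 99.0 against 22.5 to 25.2, and Cx3cr1, the fractalkine receptor, at 93.5, 93.7 and 97.4 against 17.6 to 21.7. The third culture library was the highest for each of these 3 genes. P2ry12, a receptor of resting microglia, did not follow, at 30.3, 28.7 and 34.1 against 36.3, 33.6, 34.8 and 32.1, while microglia sorts had a median of 99.4. Tmem119, another gene of resting microglia, stood at 66.3 to 76.8 against a median of 98.0 in microglia sorts. Leaving out culture replicate 3 cannot narrow a gap, and 18 of the 20 were again called. Among all 1234 genes higher in culture, 230 (18.7%) were in the top 20% of every 3 month microglia library, against 16.8% of all shared genes. This base is not a like one, because it holds genes near the top of every library, which cannot be called. In the top 20% of every 3 month O4 library were 8 (0.648%) of the 1234, against 18.5% of all shared genes. The 1234 were selected by lower ranks in the ACSA2 sorts, which share a kit with the O4 sorts. A low share in O4 can come from that selection.

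Myelin genes showed the reverse. Of 12 measured markers 11 were called lower, with a median difference of -75.7 points. Mog, a myelin surface protein, stood at 0.8, 1.8 and 3.8 in culture and 98.6, 98.1, 98.5 and 99.0 in the sorts. Opalin, Mobp, Fa2h and Cntn2 were among the widest gaps of all genes, each at 9.2 or below in every culture library. Cnp was the marker without a call, at 93.0 to 95.7 against 99.7 to 99.8. Of the 1067 genes lower in culture, 402 (37.7%) were in the top 20% of every 3 month O4 library, against 18.5% of all shared genes. The base has the same limit here. The 1067 were also selected by higher ranks in the ACSA2 sorts, which held myelin markers and share a kit with the O4 sorts. A high share in O4 can come from that selection. Precursor markers were divided, with Lhfpl3 and C1ql1 called higher and Sox10, Bcas1 and Enpp6 lower of 11. Olig2 stood at 89.2 to 90.6 against 94.2 to 95.4 and Pdgfra at 55.6 to 71.6 against 33.8 to 47.3, both without a call.

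Markers of vessels, ventricles and choroid plexus gave calls that were nearly all lower in culture, in unequal shares. Of 11 endothelial markers 6 were called lower, such as Flt1, a receptor for vascular growth factor, at 16.5, 17.8 and 32.6 against 80.4 to 91.4. Slco1a4, a transporter of the blood-brain barrier, was called higher, at 91.9 to 96.6 against 59.0 to 71.7, and lost its call when all shared genes were ranked. Of 11 ependymal and cilium genes 8 were called lower. Hydin, a protein of motile cilia, stood at 7.3 to 13.6 against 76.2 to 85.9 and Ccdc153 at 12.2 to 16.4 against 82.6 to 88.9. Of 8 choroid plexus markers 2 were called lower and 6 were not called. Ttr, transthyretin of the choroid plexus, was one of the 2 and stood at 6.5, 6.4 and 19.5 against 94.4, 99.4, 99.6 and 98.4. Its level ran from 197 to 1380 CPM among the 4 sorted libraries. Of the 15 markers of pericytes, smooth muscle and fibroblasts 5 were called higher (Acta2, Tagln, Col1a1, Col1a2 and Col3a1), 3 lower (Rgs5, Vtn and Myh11) and 7 were not called.

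Some of the widest gaps belong to genes with almost no counts in any ACSA2 or O4 library. Of the 1234 genes higher in culture, 171 (13.9%) were under 1 CPM in all 19 ACSA2 and O4 libraries, against 8.21% of all shared genes. Myadm stood at 96.3 to 97.0 in culture and 2.2 to 5.9 in the sorts. Elobl, Clcf1, Raver1 and C1qtnf5 had 0 counts in every 3 month sorted astrocyte library and stood at 83.9 or above in culture. Jund, an AP-1 gene that is widely expressed, had 211 to 293 CPM in culture, 0.053 to 0.321 CPM in the sorts and a median percentile of 99.8 in microglia. Overlap with another gene reached 52.6% of the exon length for Jund, 89.7% for Ilk, 99.7% for Raver1 and 100% for C1qtnf5, and Elobl has a close copy elsewhere. At 10% overlap or more, 23.1% of the genes higher in culture were affected, 7.12% of those lower and 14.1% of all shared genes. Low counts of these genes in the sorts are therefore uncertain. Leaving out all genes with such overlap, 1019 genes ranked higher and 936 lower.

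The other libraries of the series show how these genes stand elsewhere. Cultures with Omomyc, made with the kit of the vehicle cultures, had median percentiles within 5.5 points of theirs for the 19 genes drawn. Astrocytes sorted at 6 and 10 months had medians within 10.7 points of those at 3 months for the same genes except C3. The widest exception among the 19 was C3, at 26.4 to 37.3 at 3 months, 43.4 to 55.8 at 6 months and 48.3 to 65.4 at 10 months, still below every culture library.

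**Figure D4:**
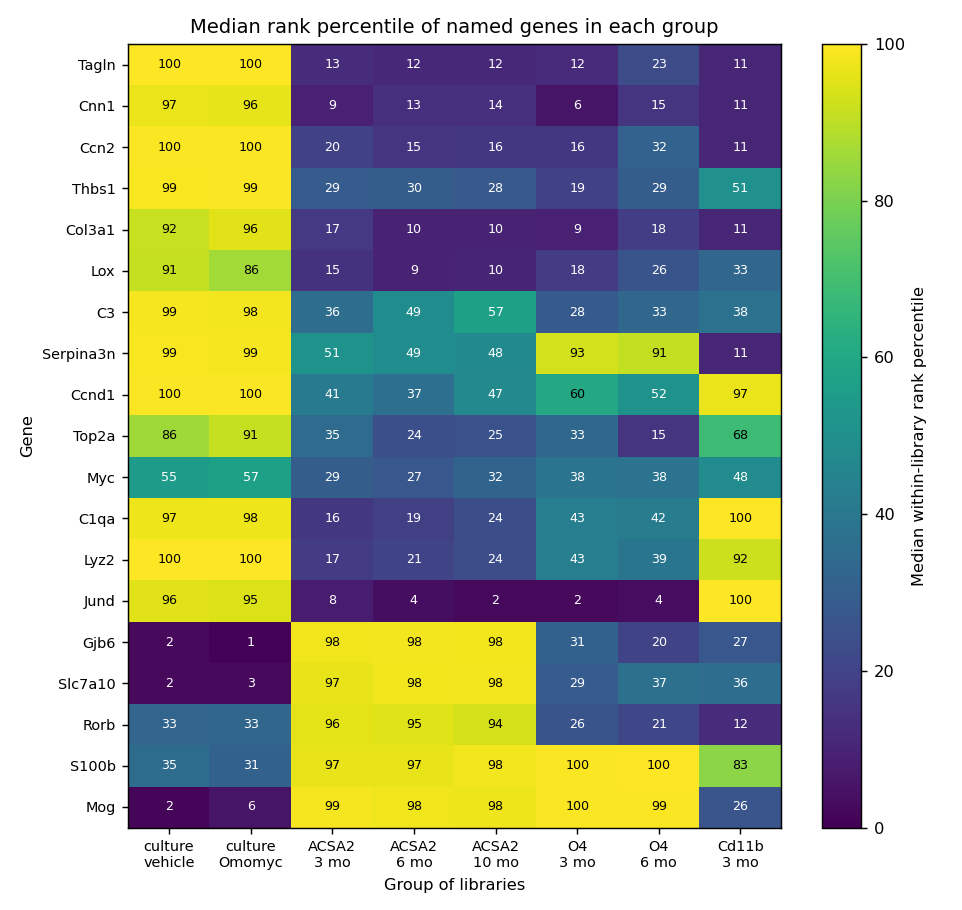
Median within-library rank percentile (colour and printed number, 0 to 100) of 19 named genes in 8 groups of libraries. The first 2 columns are cultures, the next 3 are ACSA2 sorts at 3, 6 and 10 months, then O4 sorts at 3 and 6 months and microglia at 3 months. Tagln, Cnn1 and Ccn2 are high in culture alone, C1qa and Lyz2 also in microglia, and Mog is high in ACSA2 and O4 sorts and S100b in these and in microglia.

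Seen by list, the lists with the highest medians were those of microglia, reactive astrocytes, cell division, collagens and interferon genes, and the lists with the lowest medians were those of myelin, cilia, vessels and the clock. These medians describe the lists and were not tested.

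**Figure D5:**
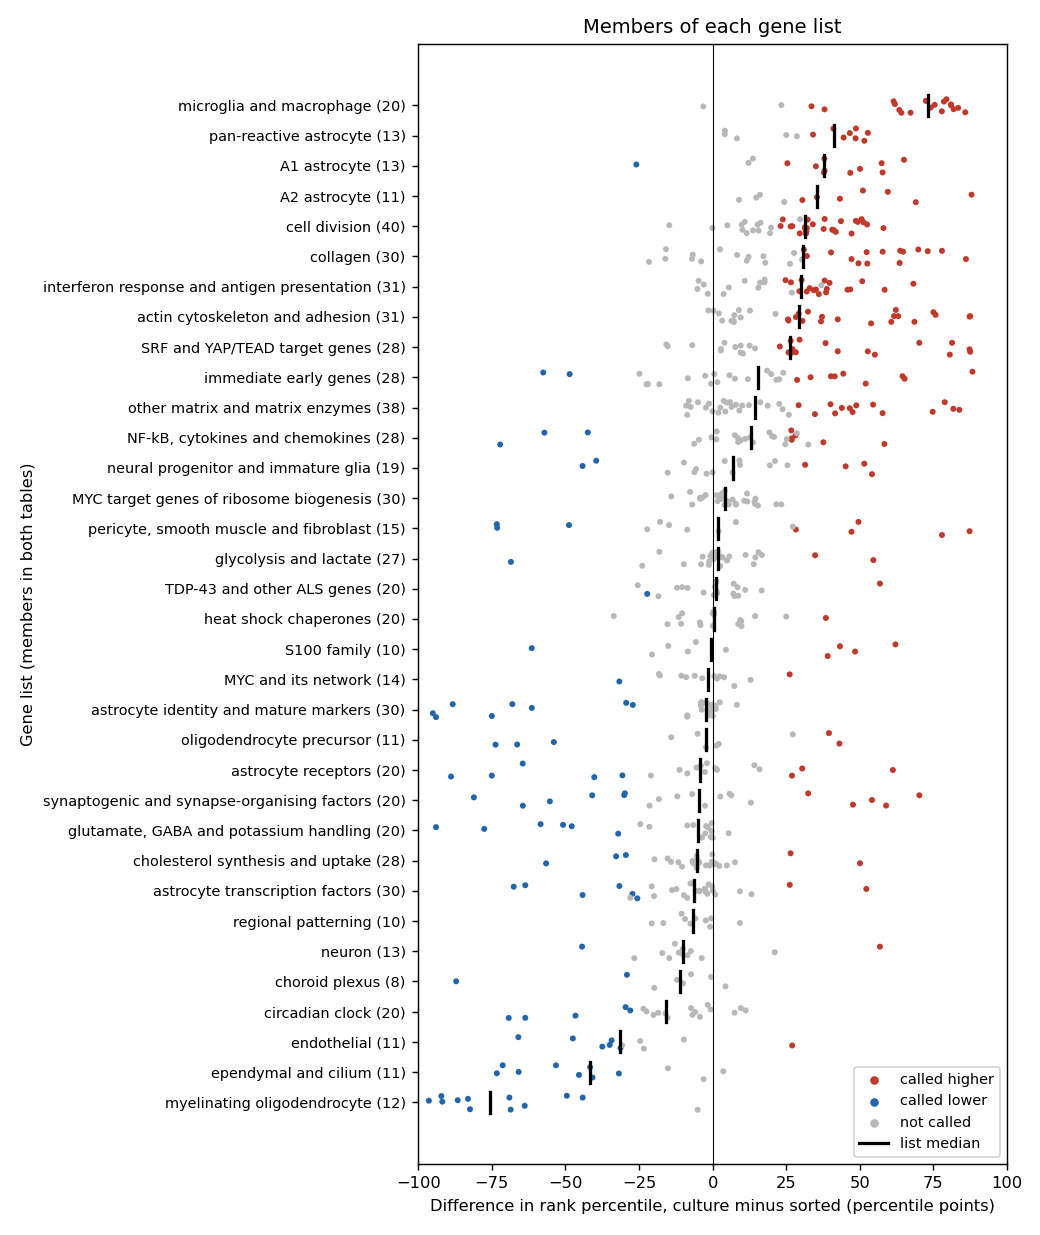
Difference in mean rank percentile, culture minus sorted (horizontal axis, percentile points), for every measured member of each gene list, sorted by list median (black bar). Red members were called higher, blue members lower and grey members were not called. The microglia list has a median of 73.3 points and the myelin list one of -75.7 points, while metabolic and MYC target lists lie near 0. The ceiling of the rank scale limits differences in the metabolic lists.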

How the data were processed

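RNA was sequenced by the authors from sorted glia and cultured astrocytes. Per the labels' protocols, the sorted astrocytes used a poly(A) kit with unique molecular identifiers and the cultures another mRNA kit with such identifiers, so the kit differs between the groups. The values used are deposited raw counts of each gene in each library, which the authors had not normalized. Per the submitters' processing notes, the tools include STAR 2.7.7a, featureCounts 2.0.1, fastp, UMI-tools 1.0.1 and DESeq2; the notes also list mm10, GRCm38.p6 and GRCm39 and do not say how each tool or build was used. Which build belongs to which table, whether counting used strand, and the rule by which the culture table was reduced are not given in the sources used here.

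Culture identifiers were matched to symbols for 17559 of 17572 genes, 36 rows that share a symbol were left out, and 17209 genes were found in both tables, of which 14725 are protein-coding in GENCODE vM21 on GRCm38. Another 70 protein-coding genes with at least 5 CPM in every 3 month sort were not in the culture table used and are not analysed here. Genes were ranked within each library with ties averaged. Percentiles were fitted in limma 3.58.1 (trend and robust, two-sided, R 4.3.3) with 1 mean per group, and p values were adjusted over all 14725 genes. Calls also needed the gap of 20 points. On simulated counts with 200 of 14725 genes changed by a log2 fold of 4, this rule recovered 156 (78%) with 0 false calls. In the real libraries 74.8% of genes did not overlap between culture and sorts, and kit and culture change together. The share of false calls among the real calls was not tested. Alternatives were joined count fits in edgeR 4.0.16 (minimum count 10) and DESeq2 1.42.0 (calls in both at 4-fold and adjusted p under 0.05), other gene sets, gaps, scaling and depth, a replicate term, and each library left out in turn. Leaving out overlapping genes was an alternative chosen after seeing the data.

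The members of the comparison and the 34 gene lists with 702 genes were chosen with earlier results of these data known. Named genes were the 12 with the widest gaps each way with at least 5 CPM in every library of the higher group and an established symbol (no clone or predicted names), up to 4 called members of each list each way, and 15 fixed genes. Other genes given with values are members of the lists and were chosen after their values were seen. Some genes of the rule are left out of the text. Replicate numbers do not pair the libraries: same-numbered cultures and sorts had correlations of deviations of -0.035, -0.08 and -0.03. The depth of a library and the spread between replicates set the precision; the median SD of a gene's percentile was 1.87 points in culture and 2.02 in the sorts.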

Additional observations from a re-analysis of the deposited data

Results flagged for a closer look

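Among 172 named genes, 12 had 1 of the 4 sorted libraries far from the other 3 by Dixon's criterion, which chance meets in about 1 of 20 groups. Replicate 1 was the lowest for Nes (percentile 43.6, others 57.9 to 58.4), Fn1 (60.2, others 81.7 to 83.4), Flt1 (80.4, others 90.7 to 91.4) and Hydin (76.2, others 84.5 to 85.9). Replicate 4, the deepest sort, was the lowest for Adrb1 (40.9, others 46.1 to 46.8), Gpc5 (90.3, others 94.6 to 94.9), Yap1 (78.2, others 80.9 to 81.3), Sox2 (94.9, others 97.2 to 97.4), Sox9 (98.4, others 99.1 to 99.2) and, by under 0.1 point at the ceiling, Slc1a3 (99.9). It was the highest for Pdgfra (47.3, others 33.8 to 34.6) and for Il6 (3.7, others 2.1 to 2.3), a gene with almost no counts. Pdgfra was called higher in culture without this library.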

How the results depend on the processing

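The count of 1234 genes higher and 1067 lower in culture kept within 1.5 times when all shared genes were ranked, when mitochondrial, ribosomal protein and histone genes were left out, with a mean of at least 1 CPM, per kilobase, after thinning to the smallest library and without overlapping genes. Leaving out each library in turn, which cannot narrow a gap, gave 1254 to 1319 higher and 1097 to 1191 lower. A gap of 10 points gave 2429 higher and 2254 lower, and a gap of 30 gave 678 and 591. Counts higher rose to 1994 in edgeR with TMM, 2019 with RLE and 2144 in DESeq2, fits whose model, gene filter and 4-fold limit all differ from the rank rule, and counts lower were 1419, 1388 and 1402; the cause was not tested. A replicate block for the shared numbers gave 1234 higher and 1067 lower and changed no named call. Of 164 named calls 130 were kept under every alternative in which the gene had a value, 34 were lost under at least 1, and 0 reversed. All 164 were kept with each library left out. This says little of their stability, since a gap then stays or widens and only the limma p could end a call. At a gap of 30, 136 were kept. The depth of the sorts and the counting of overlapping genes limit what low ranks show, and a gene above the 80th percentile in all libraries of both groups cannot be called.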

Other observations

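The 3 culture libraries were not equal in matrix and macrophage genes. Trem2, a lipid receptor of microglia, stood at percentiles 66.9, 74.0 and 86.1 in replicates 1, 2 and 3, and Mrc1, the mannose receptor of macrophages, at 37.9, 30 and 57.0. Timp1, an inhibitor of matrix proteases, stood at 40.5, 48.6 and 68.0, and Col7a1, an anchoring collagen, at 47.4, 38.7 and 75.5. Replicate 3 was the highest of the 3 for each of these genes, as it was for Csf1r, Col1a1, Col3a1 and Lox. Col7a1 and Mrc1 were not called, and Col7a1 was called without replicate 2.

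Serping1, the inhibitor of the first complement component, had the opposite order, at 75.6, 68.3 and 61.3 in culture against 25.7 to 34.5 in the sorts. Mcm2, a replication helicase subunit, was close between the cultures, at 66.2, 66.7 and 66.1 against 35.6 to 38.7 in the sorts, although the count fits did not call it.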
